A study of Sus scrofa with 23 samples.

Results

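The 12S and 16S mitochondrial ribosomal RNAs (rRNAs) were followed in the backfat RNA-seq counts of 23 pigs. They are the rows ENSSSCG00000018061 (12S, MT-RNR1) and ENSSSCG00000018063 (16S, MT-RNR2), chosen by identifier with earlier results of these data known, and they are 2 of the 25322 gene rows counted in each pig. The RefSeq annotation of the pig assembly Sscrofa11.1 places its first mitochondrial rRNA gene at positions 1246 to 2205 of the mitochondrial genome (960 bases) and the second at positions 2274 to 3844 (1571 bases), with 68 bases between them. The count files carry no coordinates.

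All pigs were crossbred fatteners kept in the same conditions and fed diets equal in protein and energy, which differed in cDDGS, the dried maize residue of ethanol production, and in the added fat. By the study's account, the control diet also held somewhat less crude fat, less fiber and somewhat more starch than the cDDGS diets. The 7 control pigs of group I, 4 female and 3 male, ate rapeseed oil without cDDGS (-cDDGS+rapeseed oil). The other pigs ate cDDGS, with rapeseed oil in the 6 of group II (+cDDGS+rapeseed oil, 3 of each sex). Beef tallow was the fat for the 5 of group III (+cDDGS+beef tallow, 2 female and 3 male), and coconut oil for the 5 of group IV (+cDDGS+coconut oil, 3 female and 2 male). Per the study, the females were gilts and the males barrows, which are castrated. Pig ages were not given in the sources used here. No group received beef tallow or coconut oil without cDDGS, so these fats were compared with group I only together with cDDGS. The RNA was partly degraded, and each library was depleted of rRNA with RiboGone before sequencing. RiboGone probes are known to be directed at cytoplasmic rRNAs and, of the mitochondrial rRNAs, at 12S, a point the study's methods do not take up. The counts therefore hold what depletion left of 12S, and the amount of 12S in the tissue and the completeness of its depletion cannot be told apart.

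Both rRNAs are transcribed from the heavy strand of mitochondrial DNA as parts of long precursors, from which they are released by cutting at the tRNAs that flank them. The 12S rRNA forms the core of the small subunit of the mitochondrial ribosome and the 16S rRNA that of the large subunit. The ribosome they build translates the mitochondrial mRNAs, whose protein products are subunits of the respiratory chain and of ATP synthase. White fat holds fewer mitochondria than muscle or brown fat.

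Gene counts totalled 2437172 to 7979426 per pig, and reads assigned to no annotated gene, called reads outside genes here, made up 51.1 to 71.3% of the uniquely mapped reads. Of 10 adipocyte marker symbols 5 had a named row, and these (PLIN1, CIDEC, PLIN4, LIPE and PNPLA2) summed to between 4311 and 7399 counts per 1000000 nuclear gene counts. Of the brown fat markers PPARGC1A had no read in any pig and ELOVL3 at most 1. The 3 skeletal muscle markers with a named row (ACTA1, TNNC2 and NEB) summed to between 39.4 and 5636 counts per 1000000 nuclear gene counts and so differed widely between samples. Their part in the rRNA counts was not tested.

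16S was the largest row in 23 of 23 pigs and 12S the second in 23 of 23. In single pigs 16S held 20.8 to 37.1% of the total, with a median of 29.2%. For 12S the shares ran from 3.56 to 14.0%, with a median of 7.10%. Counting error is small at this depth, since the widest 95% Wilson interval of a pig's share spans 0.111 percentage points for 16S and 0.0776 for 12S (counting error only). The difference between the extreme pigs was 1.78-fold for 16S and 3.93-fold for 12S, and the coefficient of variation over the 23 pigs was 16% for 16S and 33.0% for 12S.

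The other mitochondrial rows were far below both. COX1, a subunit of cytochrome c oxidase and the next row by median share, took 1.85% of gene counts. All 37 mitochondrial rows added up to 32.7 to 54.5% of a library's gene counts. Per kilobase of gene and 1000000 gene counts, the median level was 186089 reads for 16S and 73940 for 12S. COX3, the protein-coding mitochondrial gene with the highest median on this scale, had 12575. The median of 16S was thus 14.8 times and that of 12S 5.88 times the COX3 median. Of the 22 mitochondrial rows without a name in the table used here, where RefSeq lists 22 tRNA genes, 18 had no read in any pig, and the largest count in the others was 61.

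The 12S share of gene counts was lowest in group I. In that group it ran from 3.56 to 6.56%, with a median of 5.34%, and in group II from 6.28 to 10.7%, with a median of 7.44%. In group III the pigs had 8.41% (pig 41), 7.10% (pig 43), 6.31% (pig 45), 9.01% (pig 46) and 8.61% (pig 48). In group IV they had 14.0% (pig 49), 10.3% (pig 52), 4.08% (pig 53), 10.8% (pig 54) and 8.19% (pig 55). Of the 16 pigs fed cDDGS, 13 lay above the highest pig of group I, and pigs 21, 45 and 53 lay within its range. Pig 53 was the only pig of the cDDGS groups below the group I median.

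Group I had a mean 12S share of 5.27 ± 0.962% (SD, n = 7). Group II averaged 7.92 ± 1.60% (SD, n = 6), which is 2.65 percentage points more (exact permutation test over pigs, two-sided, p = 0.00175). It was 7.89 ± 1.13% (SD, n = 5) in group III, 2.62 points above group I (exact permutation p = 0.00253). It was 9.47 ± 3.66% (SD, n = 5) in group IV, 4.2 points above group I (exact permutation p = 0.0101). Over the combined cDDGS groups it was 8.39 ± 2.31% (SD, n = 16), 3.13 points above group I (exact permutation p = 0.00230). The comparisons share the pigs of group I.

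These differences were set against the whole table. The same test with p below 0.05 and a higher share in the second group was met by 9.02% of the rows tested in I versus II, by 1.54% in I versus III, by 7.62% in I versus IV and by 6.15% in I versus the combined groups. A p as small as that of 12S was found for 54 of 10323 rows in I versus II, for 16 of 10423 in I versus III, for 321 of 10388 in I versus IV and for 61 of 10749 in the combined comparison. After Benjamini-Hochberg adjustment of the exact permutation tests over all rows, the p of the 12S share was 0.334, 0.837, 0.327 and 0.357, and 0 rows of any kind were below 0.05 in any of these comparisons. The test cannot go below 0.000583 with 7 pigs against 6 or below 0.00126 with 7 against 5, which limits what an adjustment over so many rows can reach.

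The 16S share did not follow the same order. It ran from 27.2 to 37.1% in group I, with a median of 32.4%, and from 20.8 to 32.8% in group II, with a median of 26.6%. The pigs of group III had 36.0% (pig 41), 24.5% (pig 43), 33.5% (pig 45), 34.7% (pig 46) and 29.4% (pig 48). Those of group IV had 29.2% (pig 49), 22.3% (pig 52), 20.9% (pig 53), 28.9% (pig 54) and 29.3% (pig 55). Of the pigs fed cDDGS, 4 of 6 in group II, 1 of 5 in group III (pig 43) and 2 of 5 in group IV lay below the lowest pig of group I.

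The mean 16S share was 32.0 ± 3.84% (SD, n = 7) in group I. It was 27.1 ± 3.99% (SD, n = 6) in group II, a difference of -4.93 points (exact permutation p = 0.0489), and 26.1 ± 4.16% (SD, n = 5) in group IV, a difference of -5.86 points (exact permutation p = 0.0353). Of all rows tested, 1.87% in II and 1.9% in IV had a lower share with p below 0.05. In group III it was 31.6 ± 4.67% (SD, n = 5), a difference of -0.352 points (exact permutation p = 0.884). In the combined groups it was 28.2 ± 4.65% (SD, n = 16), a difference of -3.79 points (exact permutation p = 0.0738). Adjusted over all rows, these exact permutation p-values were 0.452 for II, 0.463 for IV, 0.989 for III and 0.542 for the combined groups. When 1 pig was left out in turn, the exact permutation p for II was below 0.05 in 5 of 13 cases (from 0.0164 to 0.0998) and that for IV in 6 of 12 (from 0.0303 to 0.0970), while the differences ran from -6.07 to -3.68 points for II and from -6.65 to -4.55 for IV. In bulk tissue, fewer cells rich in mitochondria and less rRNA per cell cannot be told apart.

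**Figure D1:**
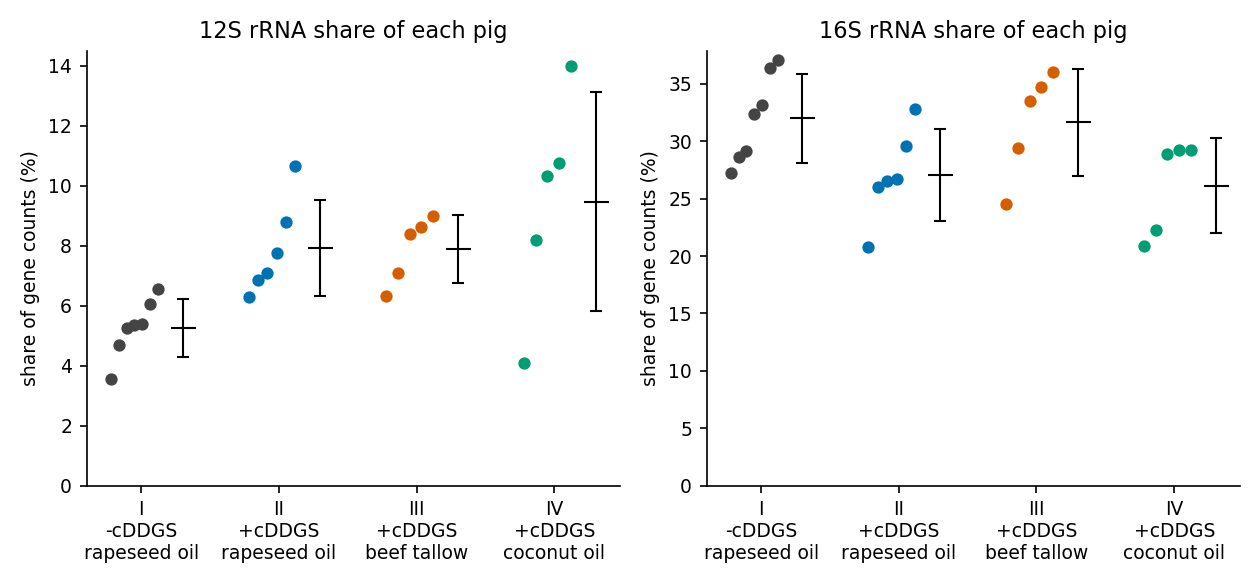
Share of gene counts (%) held by 12S rRNA (left) and 16S rRNA (right) in each of the 23 pigs, by dietary group. Each point is 1 pig, placed in rising order within its group, and the black mark shows the group mean with its SD. For 12S, 13 of the 16 pigs fed cDDGS lie above the highest pig of group I at 6.56%. For 16S, groups I (27.2 to 37.1%) and III (24.5 to 36.0%) overlap over most of their ranges, and the pigs of group IV reach no more than 29.3%.

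The denominator of the share affected some of these calls. Relative to gene counts plus reads outside genes, the control pigs had a 12S share of 2.25 ± 0.381% (SD, n = 7) and those of group II 2.97 ± 0.847% (SD, n = 6), and the exact permutation p was 0.0629. Against group III and group IV the same measure gave exact permutation p-values of 0.00126 and 0.0303. Relative to nuclear gene counts, 16S stood at 60.4 ± 12.6% in group I (SD, n = 7). It stood at 48.7 ± 11% in II (SD, n = 6), with an exact permutation p of 0.109, and at 48.7 ± 13.3% in IV (SD, n = 5), with an exact permutation p of 0.149. The 16S differences of II and IV from group I were -3.54 and -4.21 points relative to gene counts plus reads outside genes. Their exact permutation p-values were 0.0187 and 0.00253. Relative to all counts in the file they were -2.55 and -2.91 points, with exact permutation p-values of 0.0204 and 0.00505. A multi-mapped read can count more than once in that last denominator.

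The ratio of 16S to 12S counts uses no denominator of other genes, and it separated group I most clearly. In group I it ran from 5.1 to 9.10, with a median of 5.54, and in group II from 2.50 to 4.71, with a median of 3.40. The pigs of group III had 4.28 (pig 41), 3.46 (pig 43), 5.31 (pig 45), 3.85 (pig 46) and 3.41 (pig 48). The pigs of group IV had 2.09 (pig 49), 2.16 (pig 52), 5.12 (pig 53), 2.69 (pig 54) and 3.57 (pig 55). All 6 pigs of group II lay below the lowest pig of group I, as did 4 of 5 pigs of group III and 4 of 5 of group IV. The 2 exceptions were pigs 45 and 53. Scaled to gene length, the mean ratio of 16S to 12S was 3.82 in I, 2.15 in II, 2.48 in III and 1.91 in IV.

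On the log2 scale, group I had a ratio of 2.62 ± 0.30 (SD, n = 7). Group II had 1.78 ± 0.35 (SD, n = 6), a difference of -0.83 (exact permutation p = 0.000583, the smallest this design allows). Of all rows tested, 0.281% had a ratio of 16S to that row that did not overlap between groups I and II. In group III the log2 ratio was 2.00 ± 0.26 (SD, n = 5), which is -0.61 relative to group I (exact permutation p = 0.00379). In group IV it was 1.56 ± 0.54 (SD, n = 5), which is -1.06 relative to group I (exact permutation p = 0.00253), and without pig 53 this difference was -1.26. For the combined groups it was 1.78 ± 0.41 (SD, n = 16), which is -0.84 relative to group I (exact permutation p = 7.75e-05).

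When the ratio of 16S to each gene was tested in the same way for every row, p below 0.05 with a lower ratio in the second group was met by 17.0% of rows in I versus II, 0.518% in I versus III, 14.0% in I versus IV and 11.8% in the combined comparison. In the combined comparison 12S had the smallest p of the 10748 rows. In I versus II 9 rows, in I versus III 6 rows and in I versus IV 120 rows had a p as small as that of 12S, 12S included. Adjusted over all rows, the exact permutation p of 12S was 0.275, 1, 0.207 and 0.278 for II, III, IV and the combined groups, and 0 rows were below 0.05.

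**Figure D2:**
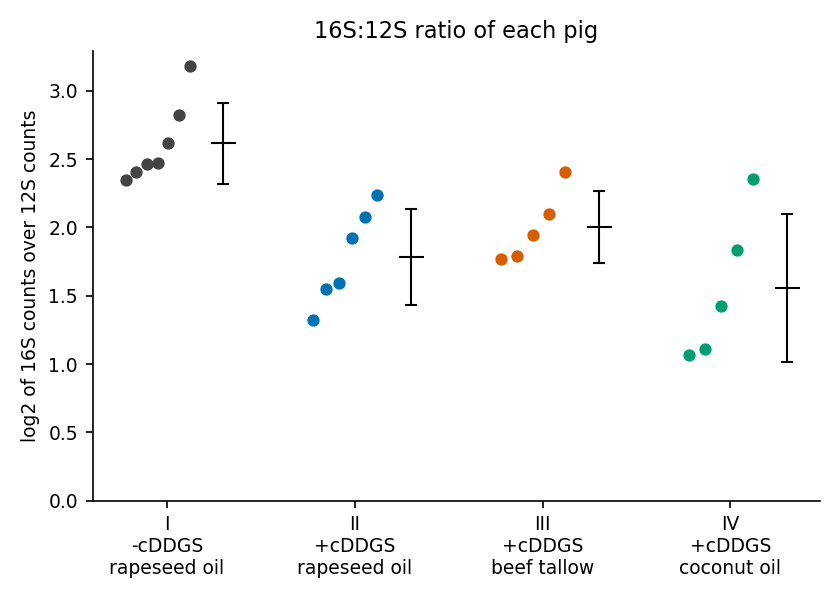
Log2 of 16S counts over 12S counts in each of the 23 pigs, by dietary group, with the group mean and SD in black. The pigs of group II all lie below those of group I, and the highest pigs of groups III (pig 45) and IV (pig 53) reach the lower end of group I.

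Among the groups fed cDDGS, no exact permutation p of the rRNA shares of gene counts or of the log2 ratio was below 0.05. For the log2 ratio, III minus II was 0.22 (exact permutation p = 0.266), IV minus II -0.22 (exact permutation p = 0.422) and IV minus III -0.44 (exact permutation p = 0.143). For the 12S share the differences were -0.0309, 1.55 and 1.58 percentage points, with exact permutation p-values of 0.965, 0.381 and 0.405. For the 16S share, III minus II was 4.58 points (exact permutation p = 0.115), IV minus II -0.930 (exact permutation p = 0.682) and IV minus III -5.51 (exact permutation p = 0.0794), and the first and last of these are about as large as the differences of II and IV from group I. With these group sizes such p-values do not show that the groups were alike.

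The 13 protein-coding mitochondrial rows gave a reference from the same genome, in an alternative chosen after seeing the data. Their summed share of gene counts was 9.03 ± 1.10% in group I (SD, n = 7), 8.61 ± 1.80% in II (SD, n = 6), 10.7 ± 1.27% in III (SD, n = 5) and 9.13 ± 1.03% in IV (SD, n = 5). For each read on these rows there were between 0.395 and 0.690 reads of 12S in group I and between 0.753 and 1.20 in group II, so that these groups did not overlap. Of all other rows tested against this reference, 0.175% did not overlap between I and II. In groups III and IV the values ran from 0.604 to 0.887 and from 0.531 to 1.37, and both overlapped with group I. The log2 difference of this ratio from group I was 0.68 for II (exact permutation p = 0.000583), 0.35 for III (exact permutation p = 0.0543), 0.74 for IV (exact permutation p = 0.0126) and 0.60 for the combined groups (exact permutation p = 0.00168). A higher ratio with p below 0.05 was met by 8.11% of rows in II, 0.115% in III, 4.59% in IV and 2.65% in the combined groups. Adjusted over all rows, the exact permutation p of 12S was 0.472, 0.313, 0.778 and 0.999.

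For 16S the same log2 differences from group I were -0.15 for II, -0.26 for III, -0.32 for IV and -0.24 for the combined groups, with exact permutation p-values of 0.433, 0.115, 0.0417 and 0.0858. Adjusted over all rows, these exact permutation p-values were 0.858, 0.378, 0.879 and 0.999. A lower ratio with p below 0.05 was met by 0.369% of rows in II, 16% in III, 1.01% in IV and 1.9% in the combined groups. Relative to the mitochondrial mRNAs, 12S was therefore higher and 16S lower in mean in each cDDGS group than in group I. In group III the share of the reference itself was 1.65 points above group I (exact permutation p = 0.0303). For this share, III minus II was 2.07 points (exact permutation p = 0.0303) and IV minus III -1.55 points (exact permutation p = 0.0397). After adjustment over 35 tests of library measures, each of these exact permutation p-values was 0.238. The 16S share of group III differed from group I by -0.352 points. Of the differences of single groups, those of 12S in II and IV and of 16S in IV had an unadjusted p below 0.05, and none did after adjustment over all rows.

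Neither rRNA was differentially expressed by edgeR's quasi-likelihood test with TMM normalization and Benjamini-Hochberg adjustment over all rows (adjusted p below 0.05 and fold change above 1.3). The share of rows called by this rule was 0.0291% in I versus II and 0.0% in I versus III, I versus IV and I versus the combined groups, and likewise 0.0% in the comparisons among II, III and IV. The log2 fold change of 12S relative to group I was 0.48 (SE 0.26, adjusted p = 0.434) in II, 0.65 (SE 0.25, adjusted p = 0.555) in III, 0.89 (SE 0.34, adjusted p = 0.265) in IV and 0.67 (SE 0.24, adjusted p = 0.192) in the combined groups by edgeR. Its unadjusted p was below 0.05 in edgeR for III (0.0184), IV (0.0205) and the combined groups (0.0104), and in DESeq2 for all 4 comparisons. DESeq2 called neither rRNA, and its smallest adjusted p for 12S was 0.0658, in the combined comparison. It called 0.527% of rows in I versus II, 0.0722% in I versus III, 0.841% in I versus IV and 0.864% in the combined comparison.

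TMM-normalized counts per 1000000 (CPM) gave the same picture of a wide spread. 12S ran from 35326 to 79663 in group I, from 56683 to 113025 in II, from 62229 to 103844 in III and from 31902 to 167088 in IV, and all the groups overlapped. For 16S the log2 fold changes by edgeR were -0.35 (SE 0.28) in II, 0.05 (SE 0.27) in III, -0.29 (SE 0.32) in IV and -0.19 (SE 0.21) in the combined groups, each with an adjusted p of at least 0.618. With RIN, the RNA integrity number of each sample, as a covariate, the 12S change in the combined groups was 0.69 (SE 0.26) and that of 16S -0.13 (SE 0.22) by edgeR. With the share of reads outside genes as a covariate they were 0.63 (SE 0.26) and -0.12 (SE 0.22). That covariate moved the largest change of 12S, in group IV, from 0.89 to 0.32 (SE 0.49) in edgeR, with an unadjusted p of 0.528 in place of 0.0205 and an adjusted p of 0.992. For 16S in IV it gave -0.57 (SE 0.47) in place of -0.29. In II and III the 12S change with this covariate by edgeR was 0.60 (SE 0.30, adjusted p = 0.538) and 0.65 (SE 0.25, adjusted p = 0.475).

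The protein-coding mitochondrial rows lay mostly between the rRNAs. Their median log2 fold change relative to group I was -0.09 in II, 0.40 in III, 0.07 in IV and 0.13 in the combined groups, beside a median of 0.00, 0.00, -0.01 and 0.01 over all rows tested. By edgeR 0 of 13 were called in any of these comparisons, and 0, 4, 1 and 1 had an unadjusted p below 0.05, where 12.96, 7.96, 14.2 and 15.8% of all rows tested did. DESeq2 called 0 of 13 as well, with 1, 6, 1 and 1 at an unadjusted p below 0.05, where 8.43, 5.42, 9.10 and 10.6% of all rows with a p did. In group III all 13 had a positive log2 fold change, from 0.14 for COX1 to 0.58 for ND3, a subunit of complex I. In group IV the highest was 0.57 for ATP8, a subunit of ATP synthase.

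**Figure D3:**
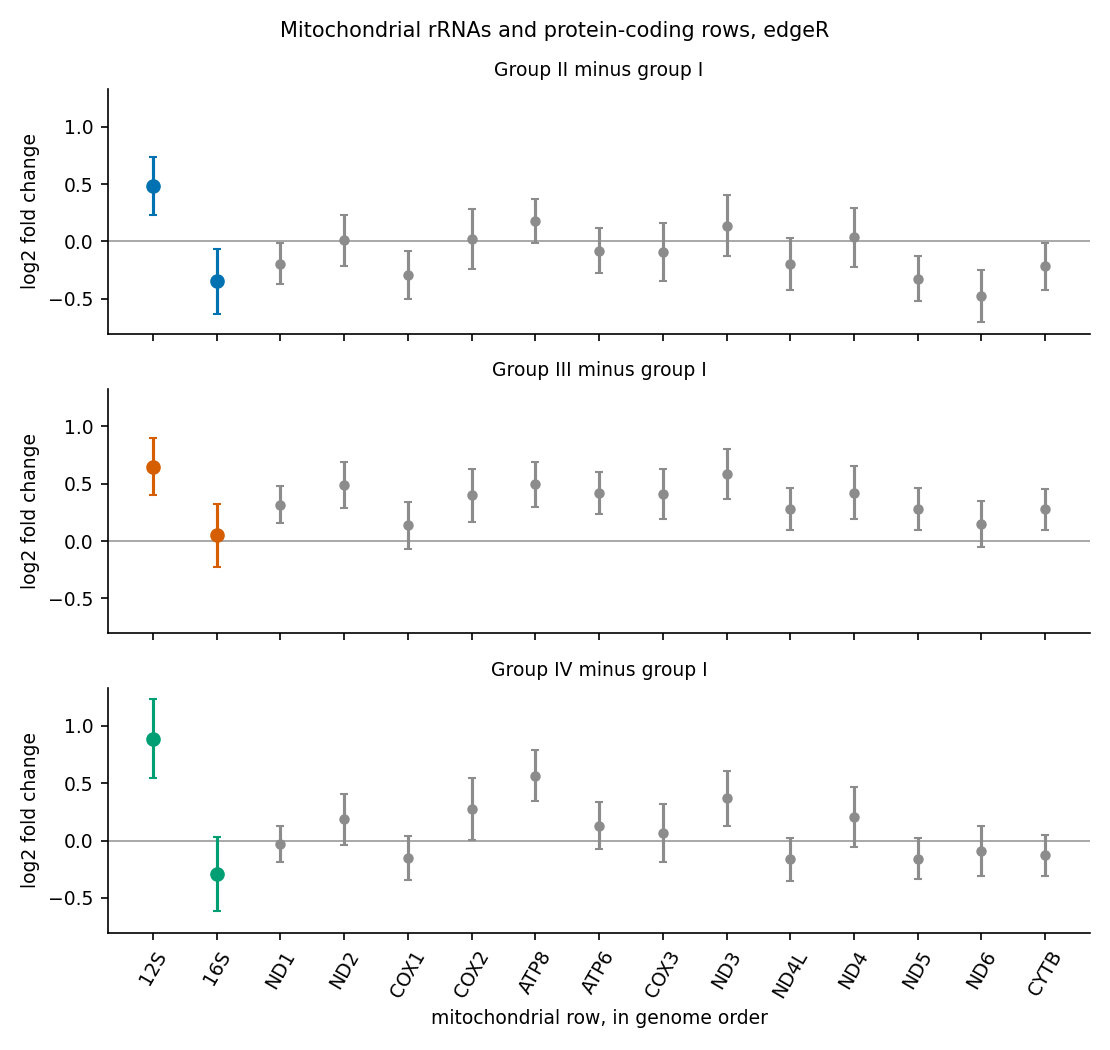
Log2 fold change (edgeR, bars show 1 SE) of 12S, 16S and the 13 protein-coding mitochondrial rows in genome order, for groups II, III and IV relative to group I. The 12S point lies above 0 in each panel, at 0.48, 0.65 and 0.89, and is the highest of its panel. The 16S point lies at -0.35, 0.05 and -0.29, and none of these rows passed the test.

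Sex was tested with dietary group as covariate. The 12S share had a median of 6.69% in the 12 females (from 4.08 to 14.0%) and of 8.61% in the 11 males (from 3.56 to 10.8%), and the 16S share one of 29.2% and 29.4%. The log2 fold change of males relative to females was 0.31 (SE 0.21, adjusted p = 0.453) for 12S and 0.21 (SE 0.18, adjusted p = 0.577) for 16S by edgeR, in a comparison in which 0.954% of rows were called. The change between group I and the cDDGS groups did not differ detectably between the sexes, with an edgeR interaction of -0.11 (SE 0.46) for 12S and -0.41 (SE 0.37) for 16S, adjusted p = 0.99994 for both, where 0.0% of rows were called.

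Library measures were compared with the rRNAs, since they differed between some groups as well. Reads outside genes made up 56.8 ± 2.53% of uniquely mapped reads in group I (SD, n = 7), 62.5 ± 5.81% in II (SD, n = 6), 56.8 ± 4.0% in III (SD, n = 5) and 63.0 ± 5.05% in IV (SD, n = 5). The unadjusted exact permutation p against group I was 0.0437 for II and 0.00884 for IV, and 0.238 for both after adjustment over 35 tests of library measures. The difference of group III from group I was -0.0147 points. The part of reads outside genes in the rRNA differences was not tested beyond the fits with that share as a covariate, given above. The counts of each file add up to more than the mapped reads that the study lists for that pig. A multi-mapped read can thus count more than once in its summary row. Multi-mapped reads are given here as a part of all counts in the file. They made up 25.1 ± 0.841% in group I (SD, n = 7) and 22.7 ± 3.09% in group IV (SD, n = 5). The exact permutation p was 0.0467, which was 0.238 after adjustment.

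Over the 23 pigs, 15 relations were computed, of 16S share, 12S share and log2 ratio with 5 measures, each with a permutation p of 100000 resamples and adjusted over the 15. The 12S share was lower in pigs with more multi-mapped reads, counted as above. Here r was -0.604 (permutation p = 0.00314, adjusted 0.0471) and rho was -0.566 (adjusted permutation p = 0.0508). Without pigs 49 and 54, the pigs farthest from the median, r was -0.398 (permutation p = 0.0753). For deviations from group means r was -0.485 (permutation p = 0.173), within group I 0.0300 and within group II -0.151. Without pig 53 alone r was -0.584 (adjusted permutation p = 0.0970), and with nuclear gene counts as the denominator of the 12S share it was -0.590. The adjusted p was thus close to 0.05, and it was no longer below 0.05 in any of these alternatives.

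The log2 ratio was lower in pigs with more reads outside genes, with r = -0.501 (permutation p = 0.0147, adjusted 0.110) and rho = -0.550 (adjusted permutation p = 0.0508). Without pigs 21 and 54 r was -0.563 (permutation p = 0.00754, adjusted 0.113), and for deviations from group means it was -0.234 (permutation p = 0.362). For the share of reads outside genes, r was -0.352 with the 16S share (adjusted permutation p = 0.212) and 0.385 with the 12S share (adjusted permutation p = 0.209). A share of gene counts and the share of reads outside genes are tied through the reads they are divided by. When the mitochondrial rows were left out of the reads that the outside share is divided by, r with the 12S share was 0.605 (adjusted permutation p = 0.0248) and r with the 16S share 0.0558.

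Over the 23 pigs, the 12S share and the log2 ratio were less related to RNA integrity and depth than to multi-mapped and outside reads. For the 16S share, r was largest in size with RIN. With RIN, r was -0.385 for the 16S share, 0.183 for the 12S share and -0.355 for the log2 ratio, with adjusted permutation p-values of 0.209, 0.470 and 0.212. The rho of RIN with the 16S share was -0.424 (adjusted permutation p = 0.118). For deviations from group means, r with the 16S share was -0.405 for RIN (adjusted permutation p = 0.294). It was -0.409 for multi-mapped reads and -0.0228 for reads outside genes. With the log2 ratio, r for such deviations was -0.309 for RIN, -0.234 for reads outside genes and 0.221 for multi-mapped reads. The order seen for the log2 ratio over all pigs thus did not hold there. RIN itself did not differ detectably between group I and group II, III or IV (exact permutation p = 0.362, 0.311 and 0.499). With the total of gene counts, r was 0.200, -0.148 and 0.236, with adjusted permutation p-values of 0.456, 0.528 and 0.456. With the share of the other 35 mitochondrial rows, r was 0.211, 0.334 and -0.221, with adjusted permutation p-values of 0.456, 0.223 and 0.456.

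**Figure D4:**
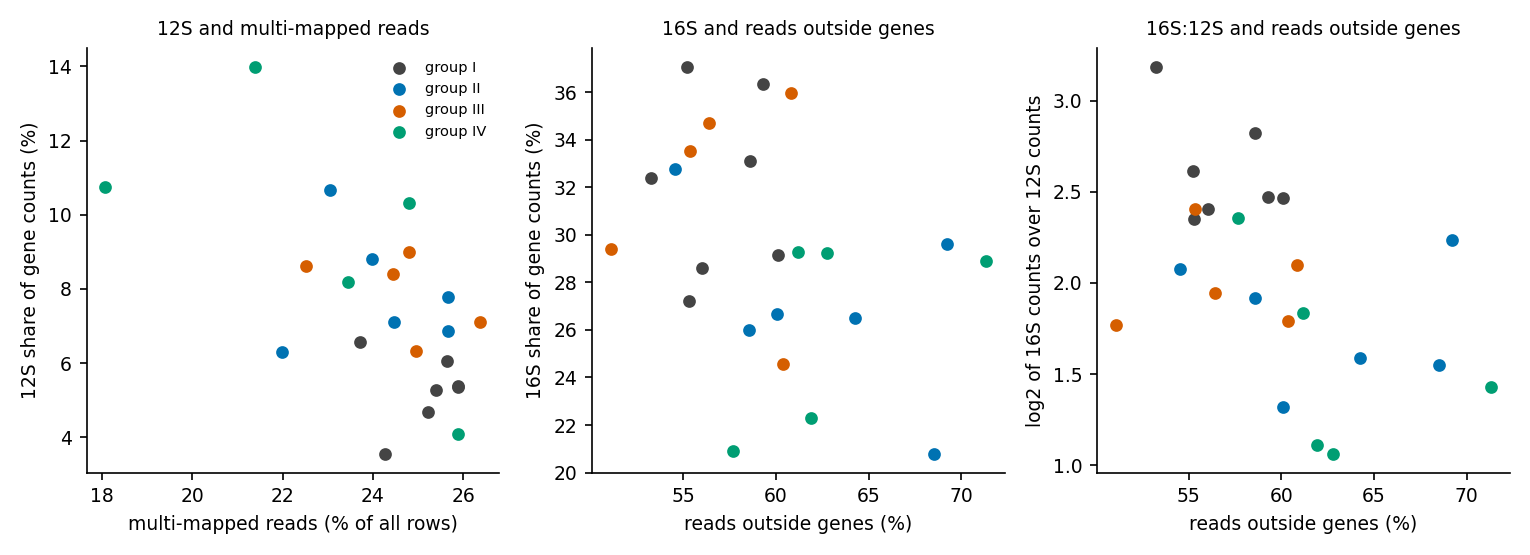
12S share against multi-mapped reads (left), 16S share against reads outside genes (middle) and log2 of the 16S:12S ratio against reads outside genes (right), with 1 point per pig coloured by dietary group and all axes in % or log2 units. Pigs 49 and 54 of group IV lie at the left edge of the first panel, and without them r there goes from -0.604 to -0.398. In the right panel r is -0.501. A multi-mapped read can count more than once.

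The descriptions of the samples begin with the letter a in groups I and IV and with z in groups II and III, and what the letters stand for is not stated. Group I thus shares its letter with group IV and differs in letter from groups II and III. Any part of the letters in the rRNA differences was not tested.

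Adipocyte markers, summed as above, had a mean of 6424 ± 751 counts per 1000000 nuclear gene counts in group I (SD, n = 7), 5389 ± 1222 in II (SD, n = 6), 5559 ± 509 in III (SD, n = 5) and 5015 ± 651 in IV (SD, n = 5). In the groups these sums ran from 5267 to 7399, 4311 to 7103, 5082 to 6409 and 4439 to 6016. Skeletal muscle markers had means of 968, 607, 1516 and 648 on this scale in I, II, III and IV, with ranges of 39.4 to 3163, 48.5 to 2518, 45.5 to 5636 and 59.3 to 2283, so that the ranges overlapped and the highest sum was in group III. The 3 blood markers with a named row (HBB, ALAS2 and HBM) summed to 35.4 ± 14.6 counts per 1000000 nuclear gene counts in group I (SD, n = 7), 47.8 ± 18.6 in II (SD, n = 6), 50.9 ± 21.1 in III (SD, n = 5) and 41.6 ± 13.8 in IV (SD, n = 5). The mean of the blood markers was thus higher, and that of the adipocyte markers lower, in each cDDGS group than in group I. The mean 12S share was also higher in each cDDGS group. Over the 4 groups, the mean 12S share was lowest in I and highest in IV. The adipocyte marker mean was highest in I and lowest in IV, and the blood marker mean lowest in I and highest in III. The blood marker ranges of 24.2 to 67.7, 29.3 to 80.5, 26.8 to 73.8 and 26.3 to 59.6 overlapped, as did the adipocyte marker ranges. HBB, a chain of haemoglobin, had 40 to 215 reads per pig, ALAS2 2 to 35 and HBM 0 to 4. The part of these cells in the rRNA shares was not tested.

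The rows most like each rRNA were found by the Pearson correlation of log2(CPM + 0.5) among 11039 rows over the 23 pigs, given as a description, since all rows share libraries and depth. For 12S the highest were KLHDC2 (r = 0.869), UBXN1 (0.866), ENSSSCG00000005372 (0.862), C1orf35 (0.862) and ENSSSCG00000014922 (0.861), none of them mitochondrial. The most alike mitochondrial row was ATP8 at rank 28 (r = 0.817), and 16S stood at rank 1136 (r = 0.449). For deviations from group means, r between 12S and 16S was 0.733. For 16S the highest were DNAJB9 (r = 0.779), ND6 (0.757), RAB33B (0.749), ACOT6 (0.731) and ND5 (0.725), and 12S stood at rank 334. Within groups, the CPM of 12S and 16S were thus more alike than over all pigs. Both CPM carry the same TMM factor in a pig, and the part of that factor in this likeness was not tested. 16S had 2 subunits of complex I, ND6 and ND5, among its closest rows.

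The nuclear genes that build and serve the mitochondrial ribosome were described as lists. Of 81 mitochondrial ribosomal protein symbols 47 had a named row and 44 were tested, of 14 for mitochondrial transcription and DNA maintenance 9 and 6, and of 39 for rRNA processing, modification and decay 28 and 24. By edgeR 0 of the tested rows were called in any comparison with group I. At an unadjusted p below 0.05, the counts for II, III, IV and the combined groups were 6, 3, 5 and 6 ribosomal proteins, 0, 0, 0 and 0 transcription genes, and 3, 2, 4 and 4 processing genes. Over all rows tested in edgeR, 12.96, 7.96, 14.2 and 15.8% had an unadjusted p below 0.05. DESeq2 called 1 of 46 ribosomal protein rows, MRPL18, in the combined comparison, where it called 0.864% of all rows, and 0 in the other comparisons. Its counts of ribosomal proteins at an unadjusted p below 0.05 were 6, 3, 6 and 7 of 46. Of all rows with a p in DESeq2, 8.43, 5.42, 9.10 and 10.6% met that limit.

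The medians of the lists were small. For the ribosomal proteins the median log2 fold change relative to group I was -0.08 in II, -0.01 in III, -0.13 in IV and -0.04 in the combined groups. For the processing genes it was -0.14, -0.00, -0.13 and -0.07, and for the transcription genes -0.07, -0.10, -0.02 and -0.06. MRPL18, a protein of the large subunit, had 12.2 ± 2.54 CPM in group I (SD, n = 7) and 7.99 ± 1.53 in group II (SD, n = 6), with a log2 fold change of -0.60 (SE 0.18, adjusted p = 0.224 by edgeR). MRPL16, also of the large subunit, had -0.58 (SE 0.20) in group II. MRM1, which methylates 16S rRNA, had 8.03 ± 1.96 CPM in group I (SD, n = 7) and 5.04 ± 1.41 in group II (SD, n = 6), with a log2 fold change of -0.63 (SE 0.22, adjusted p = 0.263 by edgeR).

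DHX30, an RNA helicase needed for assembly of the mitochondrial ribosome, had a log2 fold change of -0.32 (SE 0.14) in group II. POLG, the mitochondrial DNA polymerase, had -0.19 (SE 0.15) and MTERF1, a factor that binds mitochondrial DNA next to the 16S gene, -0.16 (SE 0.20). None of these 6 genes passed the adjusted test of edgeR in any comparison with group I.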

How the data were processed

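Backfat RNA of 23 pigs was measured by RNA-seq. Per the labels and the study's methods, the authors made stranded total RNA libraries with rRNA depletion, sequenced single-end reads on 1 flow cell in replicate (how runs were merged is not given in the sources used here), and used bcl2fastq, FastQC, FLEXBAR, TopHat, RSEM and HTSeq with the pig genome and Ensembl annotation named in the study. The deposited values are raw counts, whole numbers for 25322 gene rows and 5 summary rows per pig, made by the authors without normalization. The summary rows, 62.6 to 76.7% of all counts in a file, stayed out of library sizes and tests. A multi-mapped read can count more than once in them. Multi-mapped reads were not counted on genes, so nuclear copies of mitochondrial sequence may take reads from the rRNA rows, and no sequence was used here.

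Groups and pig numbers came from the labels, and replicates are separate pigs. RIN came from the study's sample table and entered only as a covariate, in correlations and in tests of RIN between groups. Counts of the 56 pairs of pigs within groups differed by a chi-square of at least 5.42 per degree of freedom, so each pig counted as 1 sample. Names came from a table pairing 11804 identifiers with symbols, which names the 13 protein-coding mitochondrial rows. The names 12S and 16S were given with the identifiers.

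Shares of gene counts and the log2 16S:12S ratio were compared by exact permutation of pigs (two-sided, difference in means), in 21 tests, and the same test was run for all rows that passed the low-count filter and adjusted over them by Benjamini-Hochberg (for ratios, with 0.5 added to the counts of other rows). An adjustment over the 21 tests alone had been planned and is not reported. Counts were tested with edgeR 4.0.16 (TMM, filterByExpr, glmQLFit and glmQLFTest) in R 4.3.3, on the pigs compared. Correlations used 100000 permutations. Alternatives were DESeq2 1.42.0, limma-voom (limma 3.58.1), other scalings, filters, denominators and covariates, and leaving out each pig. The tests were tried on simulated data. Named genes were the 12S and 16S rows, the 5 rows most correlated with each, the mitochondrial rows with the largest and smallest median share, and, in each nuclear list without a called member, the 2 rows with the smallest p in I versus II. Other mitochondrial genes named are the extremes of a range, chosen after their values were seen. The rRNAs, the lists and the tests were chosen with earlier results of these data known, the study's own fold changes for these rRNAs among them. Tools were Python 3.11.15, scipy 1.17.1 and matplotlib 3.10.9.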

Additional observations from a re-analysis of the deposited data

Results flagged for a closer look

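Of 28 sets of values examined (7 measures in 4 groups), 1 held a pig far from the others of its group, where chance alone would give about 1 in 20. In group II, the log2 ratio of 16S to the summed protein-coding mitochondrial counts was 2.50 in pig 21 and between 1.34 and 1.67 in the other 5 pigs, and the gap made up 0.718 of the range of the group. In pig 21 the protein-coding rows held 5.23% of gene counts, the lowest of the 23 pigs, with 29.6% for 16S and 6.28% for 12S, and 69.2% of its uniquely mapped reads lay outside genes.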

How the results depend on the processing

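No paired analysis was possible because the labels give each pig its own number, which no pig of another group shares. The 12S log2 fold change relative to group I was positive in 48 of 48 alternative fits of all pigs, from 0.32 to 0.91, with adjusted p from 0.0658 to 0.992, and neither rRNA was called under any of them. Where other settings moved a value across 0 or across an unadjusted p of 0.05 (0.05 after adjustment for correlations), the cause was not tested.

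Log2 fold changes near 0 turned negative without TMM (16S in III versus I -0.016 and in IV versus II -0.051, 12S in III versus II -0.0067) and with reads outside genes as covariate (12S in III versus II -0.031 and in IV versus III -0.048). Leaving out 1 pig in turn, 16S ran from -0.011 to 0.179 in III versus I and from -0.064 to 0.185 in IV versus II, and 12S from -0.025 to 0.467 in IV versus III.

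Relative to nuclear gene counts, the 16S difference from group I was -11.7 points in II and -11.7 in IV (no longer past 0.05) and 4.28 in III, and the 12S difference of III from II was 1.84. Relative to gene counts plus reads outside genes, the 12S difference was 0.724 in II versus I (no longer past 0.05) and 0.416 in III versus II, and the 16S difference -2.69 in the combined groups versus I and -4.06 in IV versus III (both now past it). Relative to all counts in the file these 4 values were 0.569, 0.303, -1.88 and -2.87. The log2 12S share of III minus II was 0.0047. Relative to protein-coding mitochondrial counts, log2 differences were -0.15 for 16S in II versus I and 0.35 for 12S in III versus I (no longer past 0.05) and -0.11 for 16S in III versus II.

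Leaving out 1 pig in turn, the difference in 16S share ran from -6.07 to -3.68 points in II versus I, from -1.44 to 1.42 in III versus I, from -6.65 to -4.55 in IV versus I, from -4.58 to -2.94 in the combined groups versus I, from 3.33 to 6.35 in III versus II, from -2.18 to 0.378 in IV versus II and from -7.28 to -4.20 in IV versus III. That of the 12S share ran from -0.358 to 0.521 in III versus II and from 0.448 to 2.92 in IV versus III, and that of the log2 ratio from -0.64 to -0.32 in IV versus III. The differences of the 12S share and of the log2 ratio from group I kept p below 0.05 without any 1 pig.

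Of the correlations, 12S share with multi-mapped reads lost its call without pigs 49 and 54 (-0.398), without pig 53 (-0.584) or 54 (-0.587), for deviations from group means (-0.485), within group I (0.030) or II (-0.151), and with outside reads (-0.363) or nuclear counts alone (-0.590) in the denominator. With outside reads in the denominator, 16S share with reads outside genes (-0.768) and 12S share with the other mitochondrial rows (0.607) passed, and without mitochondrial rows in the outside share 12S share did (0.605). Correlations that changed sign without passing were, for the 16S share, those with reads outside genes (0.066 within group I, 0.056 without mitochondrial rows), RIN (0.148 within group II), gene-count total (-0.011 without 2 pigs, -0.046 for deviations, -0.476 within group I) and multi-mapped reads (0.0039 within group II, 0.278 with outside reads in the denominator, 0.024 without pig 53). For the 12S share they were those with reads outside genes (-0.339 within group II, -0.023 with outside reads in the denominator), RIN (-0.026 within group I) and gene-count total (0.068 with outside reads in the denominator), and for the log2 ratio that with multi-mapped reads (-0.449 within group I). Leaving out pig 53 or 54 was chosen after seeing the data, as was the reference of protein-coding rows. Depth limits these rRNA shares little, while groups of 5 to 7 pigs limit what the tests can reach.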
